A study of Sus scrofa with 10 samples.

Results

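The lysosomal genes described here are 51 listed genes for the acid hydrolases, membrane proteins and proton pump of the lysosome and for 3 transcription factors of the MiT family. Members were taken by gene symbol in the annotation of the array's probe sets, and of several probe sets for a gene the one with the highest average over the 10 arrays was read. Of the 51 genes, 42 had a row and were measured, among 13755 named genes in all. The proteases were CTSA, CTSB, CTSC, CTSD, CTSH, CTSK, CTSZ and TPP1, and the glycosidases were HEXA, GLB1, GUSB, GAA, IDUA, MANBA, FUCA1 and GBA2. The sulfatases were GALNS, SGSH, IDS and ARSB, the lipid hydrolases LIPA, SMPD1 and PPT1, the phosphatase ACP2, and the activator and lipid carrier proteins PSAP and NPC2. The membrane proteins were LAMP1, LAMP2, NPC1, SCARB2, CLN3, LAPTM4A and LAPTM5, the pump genes ATP6V0D1, ATP6V0D2, ATP6V1A, ATP6V1B2, ATP6V1H and ATP6AP1, and the transcription factors TFEB, TFE3 and MITF. The other 9 listed genes, CTSF, GLA, NAGLU, MAN2B1, ARSA, ASAH1, ACP5, GM2A and MCOLN1, were not analysed here.

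RNA came from alveolar macrophages of 5 Hampshire pigs and was hybridised to 10 Affymetrix Snowball arrays, which are pig expression arrays. Each pig gave 1 array of non-adherent cells (n = 5), harvested unattached after overnight culture and sorted by flow cytometry for large size and high granularity. Each also gave 1 array of adherent cells (n = 5), reused from an earlier series on the same animals, for which no sort is stated. All cells had been frozen, thawed and cultured overnight in medium with recombinant human CSF-1, and the labels call both groups untreated at 0 h, with no age given. For the adherent samples the protocol additionally speaks of taking away adherent cells and of adding lipopolysaccharide, which goes against that label. Attachment, sort and array series coincide with the groups, so their parts in any difference cannot be told apart. In such bulk samples, fewer cells of a type and less RNA per cell cannot be told apart either.

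Lysosomes are acidic organelles in which hydrolases break down what a phagocyte takes up. The V-ATPase, a rotary proton pump made of a membrane sector (V0) and a cytosolic sector (V1), supplies the acid, and heavily glycosylated membrane proteins such as LAMP1 and LAMP2 line the limiting membrane. TFEB, TFE3 and MITF bind a shared motif in the promoters of many lysosomal genes, and phosphorylation by mTORC1 on the lysosomal surface keeps TFEB and TFE3 in the cytosol. Alveolar macrophages rely on this machinery to clear surfactant, dead cells and inhaled particles.

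Values are log2 probe set values, and differences are non-adherent minus adherent on that scale. A ± gives the standard error from limma, or the SD where SD is written, and adjusted p-values are Benjamini-Hochberg values over all 13755 genes, with a threshold of 0.05. Array medians lay between 4.97 and 5.09. The background probe sets with 17 or more G and C letters averaged 6.43 to 6.58 on non-adherent arrays, against 6.92 to 7.30 on adherent arrays, whereas those with fewer than 10 such letters averaged 2.33 to 2.40 against 2.34 to 2.42. The hybridisation control BioB averaged 8.83 to 9.25 on non-adherent arrays and 5.69 to 5.85 on adherent arrays. Averaged over the list, the 7 measured of 10 dendritic cell markers lay at 6.95 to 8.39 in non-adherent cells, against 5.77 to 6.05 in adherent cells, and 6 of the 7 rose. The 10 measured of 12 alveolar macrophage markers lay at 8.22 to 8.55 in non-adherent cells, against 7.60 to 8.07 in adherent animals 2 to 5 and 8.59 in adherent animal 1, and 2 rose and 1 fell. The 6 neutrophil markers lay at 9.16 to 9.50 in non-adherent cells, against 8.72 to 9.30 in adherent animals 2 to 5 and 9.90 in adherent animal 1. Averages of epithelial, T or NK cell, B cell, erythroid and fibroblast markers overlapped between the groups, although the epithelial adhesion molecule EPCAM fell by 1.35 ± 0.32 and the collagen gene COL1A2 rose by 0.33 ± 0.09 in non-adherent cells. The part of these markers in the results below was not tested.

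Non-adherent cells had lower expression of the lysosomal transcription factor TFEB, the proteases CTSD and CTSZ, the pump accessory subunit ATP6AP1, the cholesterol transporter NPC1 and 9 further members. The other 9 were HEXA, GLB1, GAA, GALNS, SGSH, ACP2, PSAP, LAMP1 and CLN3. The sulfatase IDS alone rose, by 1.39 ± 0.15, on 1 of its 4 probe sets. Thus 14 of 42 members fell (33.3%), where 9.78% of all genes fell, and 1 rose, where 6.72% of all genes rose. Over genes above the median level of all probe sets, where 41 of the 42 members lay, 13.3% fell and 7.79% rose in the same fit. The members' median log2 difference was -0.30, beside 0.01 for all genes. Among members, 13 had every non-adherent array below every adherent array, against 8.63% of all genes, and 2 had every non-adherent array above, against 6.35% of all genes. Taken animal by animal, 19 members were lower in 5 of 5 animals (45.2%), against 16.5% of all genes, and 3 were higher in 5 of 5, against 15.3% of all genes.

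Array scaling left the members' counts close to these. Centring the arrays gave 13 lower and 1 higher, with HEXA lost. Quantile normalization gave 14 and 1, with HEXA lost and ATP6V0D2 gained. Over all genes, however, centring changed 1345 lower and 925 higher to 1060 lower and 1509 higher. With the GC-rich background of each array as a covariate, 0 of 42 members and 2 of 13755 genes passed in limma, with 10 members and 1154 genes at an unadjusted p under 0.05 and a members' median of -0.48. That background did not overlap between the groups, so it cannot be told apart from the groups. In that fit TFEB differed by -0.76 ± 0.24 (adjusted p = 0.448), and other called members changed unevenly in size. CTSD differed by 0.00 ± 0.63, SGSH by -0.05 ± 0.32 and CTSZ by -0.30 ± 0.62, against -1.11, -0.73 and -0.98 without the covariate. GLB1 went the other way, with -1.06 ± 0.47 against -0.68.

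**Figure D1:**
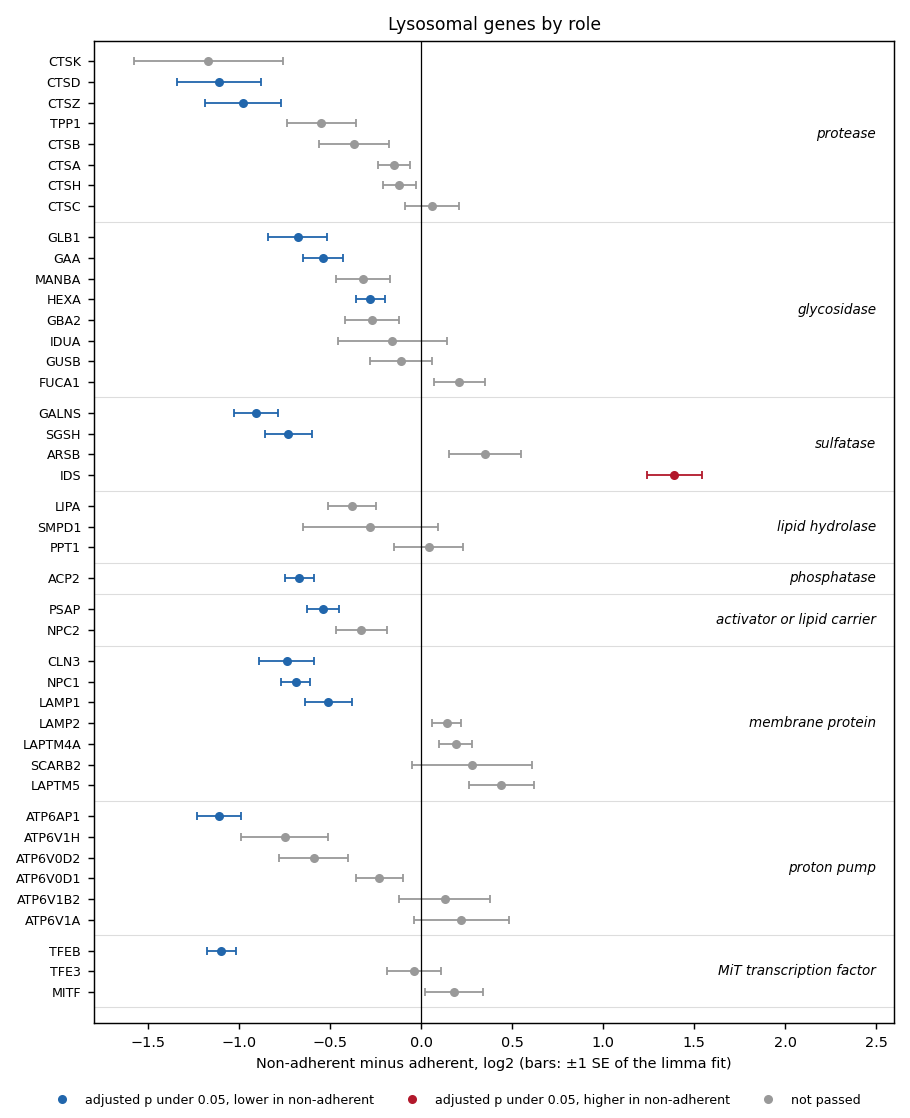
Log2 differences (non-adherent minus adherent, x axis) of the 42 measured members by role, with bars of 1 SE. Blue marks the 14 members that fell, red the 1 that rose (IDS) and grey those that did not pass an adjusted p of 0.05. Proteases, glycosidases and pump genes lie mostly left of 0, while membrane proteins lie on both sides.

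Among the MiT transcription factors, TFEB had 7.98, 7.97, 8.09, 7.88 and 7.99 in non-adherent cells of animals 1 to 5, against 9.12, 8.96, 9.28, 9.02 and 9.01 in adherent cells. The closest arrays of the 2 groups were 0.87 apart, and TFEB averaged 7.98 ± 0.08 in non-adherent cells and 9.08 ± 0.13 in adherent cells (SD, n = 5 each). TFEB fell by 1.10 ± 0.08, a 2.14-fold difference with the lowest p of all members (adjusted p = 4.04e-05). Removing any 1 array or any 1 animal kept that call (adjusted p up to 0.0011).

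TFE3, a close relative of TFEB with overlapping targets, had 8.92, 8.98, 9.11, 9.12 and 9.04 in non-adherent cells, against 8.55, 8.91, 9.16, 9.37 and 9.38 in adherent cells. Non-adherent arrays lay within the adherent range, and the difference was -0.04 ± 0.15 (adjusted p = 0.883). MITF, known for melanocyte and osteoclast development, had 10.98, 10.96, 10.67, 10.94 and 10.68 in non-adherent cells, against 11.23, 10.83, 10.32, 10.45 and 10.52 in adherent cells. MITF was higher in the non-adherent array of 4 animals and lower in that of animal 1, with a difference of 0.18 ± 0.16 (adjusted p = 0.498). Whether TFEB differed from TFE3 and MITF in its change was not tested.

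Among the proteases, CTSD and CTSZ fell and the other 6 measured members did not pass. Cathepsin D, an aspartic endopeptidase, had 11.08, 10.92, 10.80, 10.30 and 10.52 in non-adherent cells, against 12.71, 11.67, 11.72, 11.64 and 11.45 in adherent cells. Every non-adherent array lay below every adherent one, the highest being adherent animal 1, and CTSD fell by 1.11 ± 0.23 (2.16-fold, adjusted p = 0.00847). Cathepsin Z, a cysteine carboxypeptidase, had 11.03, 10.97, 10.74, 10.33 and 10.31 in non-adherent cells, against 12.23, 11.60, 11.82, 11.51 and 11.12 in adherent cells. The groups did not overlap, although the lowest adherent value, in animal 5, came within 0.09 of the highest non-adherent value. CTSZ fell by 0.98 ± 0.21 (adjusted p = 0.0103, and 0.0588 without both arrays of animal 3).

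CTSK, the collagen-cleaving cathepsin best known from osteoclasts, had 9.97, 9.80, 9.72, 9.85 and 9.97 in non-adherent cells, against 9.15, 11.79, 11.31, 11.55 and 11.38 in adherent cells. The difference between an animal's arrays was -1.99 to -1.41 in animals 2 to 5 and 0.82 in animal 1. CTSK did not pass with all arrays (-1.17 ± 0.41, adjusted p = 0.0764), and without adherent animal 1 its difference was -1.64 ± 0.11 (adjusted p = 1.41e-05). With all arrays, the mean of its 2 probe sets gave -0.29 (adjusted p = 0.529). CTSB, an abundant cysteine protease of macrophages, had 13.12, 12.81, 12.69, 12.53 and 12.77 in non-adherent cells, against 12.42, 13.36, 13.33, 13.37 and 13.30 in adherent cells. Adherent animal 1 again lay below all other adherent arrays. The difference of CTSB was -0.37 ± 0.19 (adjusted p = 0.204), and -0.56 ± 0.11 without that array (adjusted p = 0.0054).

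CTSA, which protects NEU1 and GLB1 in a complex besides acting as a carboxypeptidase, had 12.09, 12.02, 12.03, 12.06 and 11.81 in non-adherent cells, against 12.13, 12.06, 12.15, 12.36 and 12.09 in adherent cells. It was lower in 5 of 5 animals by small amounts and did not pass (-0.15 ± 0.09, adjusted p = 0.262). CTSH, an aminopeptidase that also processes surfactant proteins in alveolar type II cells, had 12.90, 12.90, 12.84, 12.80 and 12.92 in non-adherent cells, against 12.75, 13.07, 13.08, 13.13 and 12.94 in adherent cells. Adherent animal 1 was the lowest array and the other adherent arrays were the highest, and the difference of CTSH was -0.12 ± 0.09 (adjusted p = 0.392). CTSC, the activator of granule serine proteases, had 12.48, 12.42, 12.38, 12.47 and 12.19 in non-adherent cells, against 12.11, 12.71, 12.37, 12.60 and 11.89 in adherent cells. The adherent arrays of CTSC spanned the non-adherent ones, with a difference of 0.06 ± 0.15 (adjusted p = 0.84). TPP1, a tripeptidyl peptidase, averaged 9.09 ± 0.10 in non-adherent cells and 9.64 ± 0.45 in adherent cells (SD, n = 5 each) and did not pass (-0.55 ± 0.19, adjusted p = 0.0679). It passed without adherent animal 4, its highest array (adjusted p = 0.0404), and without adherent animal 5 (adjusted p = 0.0446).

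**Figure D2:**
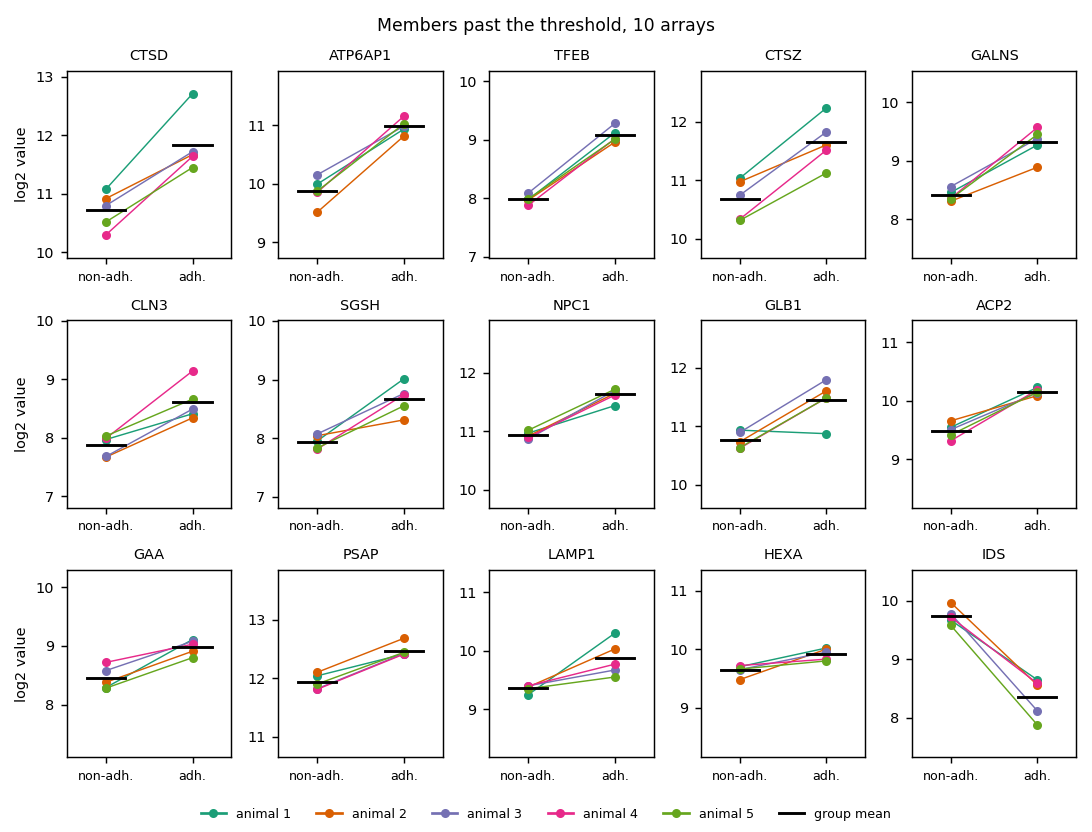
Log2 value (y axis) of the 15 members past the threshold on each array, with non-adherent cells on the left and adherent cells on the right of each panel. Lines join the 2 arrays of an animal and black bars are group means (n = 5 each). All lines rise to the adherent side except that of GLB1 in animal 1 and those of IDS, the one member that was higher in non-adherent cells.

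The glycosidases remove sugars from glycoproteins, glycolipids and glycosaminoglycans, and 3 of the 8 measured fell (37.5%). Among genes above the median level of all probe sets, 13.3% fell. GLB1, the acid beta-galactosidase, had 10.93, 10.73, 10.89, 10.62 and 10.63 in non-adherent cells, against 10.87, 11.60, 11.79, 11.48 and 11.48 in adherent cells. It was lower in 4 of 5 animals and 0.06 higher in animal 1, and it fell by 0.68 ± 0.16 (adjusted p = 0.0129). Without both arrays of animal 2, 3, 4 or 5 the call of GLB1 was lost, with a highest adjusted p of 0.0709. GAA, the acid glucosidase that degrades glycogen, had 8.29, 8.38, 8.58, 8.72 and 8.28 in non-adherent cells, against 9.11, 8.91, 9.08, 9.03 and 8.80 in adherent cells. These groups were apart by 0.08 at their closest, and GAA fell by 0.54 ± 0.11 (adjusted p = 0.00706). HEXA, the alpha subunit of beta-hexosaminidase A, had 9.70, 9.48, 9.65, 9.72 and 9.66 in non-adherent cells, against 10.02, 10.00, 9.95, 9.83 and 9.80 in adherent cells. HEXA fell by 0.28 ± 0.08 (adjusted p = 0.039), with no overlap between the groups. That call was lost under 19 of 25 alternatives, among them a block for the animal (adjusted p = 0.0792), the removal of 8 of the 10 single arrays (up to 0.0806) and that of any animal (up to 0.137).

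The other 5 glycosidases did not pass. MANBA, a beta-mannosidase, averaged 9.06 ± 0.20 in non-adherent cells and 9.38 ± 0.30 in adherent cells (SD, n = 5 each). It was lower in 5 of 5 animals and differed by -0.32 ± 0.15 (adjusted p = 0.174, and 0.0603 with a block for the animal). MANBA passed without adherent animal 5, its lowest adherent array (adjusted p = 0.0305), and without both arrays of animal 5 (adjusted p = 0.0488). GBA2, a glucosylceramidase that acts outside the lysosome, was also lower in 5 of 5 animals, with a difference of -0.27 ± 0.15. IDUA, which cleaves iduronic acid from glycosaminoglycans, had 8.82 in adherent animal 1 and 6.97 to 7.64 in the other adherent arrays, around the 7.20 to 7.59 of non-adherent cells. Its difference of -0.16 ± 0.30 became 0.16 ± 0.14 without that array. GUSB, the beta-glucuronidase, differed by -0.11 ± 0.17, and FUCA1, the alpha-fucosidase, by 0.21 ± 0.14 with higher values in 4 of 5 animals.

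The sulfatases, which strip sulfate groups from glycosaminoglycans and lipids, moved both ways. GALNS, which acts on keratan and chondroitin sulfate, had 8.46, 8.31, 8.56, 8.36 and 8.35 in non-adherent cells, against 9.27, 8.89, 9.38, 9.57 and 9.45 in adherent cells. SGSH, the sulfamidase of heparan sulfate, had 7.95, 8.04, 8.07, 7.81 and 7.83 in non-adherent cells, against 9.01, 8.31, 8.76, 8.74 and 8.55 in adherent cells. Neither gene had overlapping groups, and GALNS fell by 0.91 ± 0.12 (adjusted p = 0.000849) and SGSH by 0.73 ± 0.13 (adjusted p = 0.00313).

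IDS, the iduronate sulfatase, had 9.67, 9.97, 9.78, 9.72 and 9.58 in non-adherent cells, against 8.65, 8.56, 8.12, 8.59 and 7.88 in adherent cells. All 5 animals were higher in non-adherent cells and the groups lay 0.94 apart at their closest, with a 2.61-fold rise (adjusted p = 0.000266). That rise rested on 1 of 4 probe sets, since the other 3 differed by 0.09 ± 0.08, 0.28 ± 0.10 and -0.02 ± 0.07, and the mean of the 4 gave 0.44 (adjusted p = 0.00198). ARSB, the fourth measured sulfatase, did not pass (0.35 ± 0.20, adjusted p = 0.273).

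The lipid hydrolases LIPA, SMPD1 and PPT1 did not pass. LIPA, the acid lipase of cholesteryl esters and triglycerides, averaged 11.56 ± 0.12 in non-adherent cells and 11.94 ± 0.27 in adherent cells (SD, n = 5 each) and was lower in 5 of 5 animals. Its difference of -0.38 ± 0.13 had an adjusted p of 0.0698, and of 0.0479 with a block for the animal. SMPD1, the acid sphingomyelinase, had 7.66, 7.82, 8.12, 6.77 and 6.71 in non-adherent cells, against 8.18, 7.95, 8.48, 6.95 and 6.94 in adherent cells. Animals 4 and 5 had the lowest values in both groups, 6.71 to 6.95, and the other arrays had 7.66 to 8.48. SMPD1 was lower in 5 of 5 animals, with differences of -0.52 to -0.12, and in the fit its difference was -0.28 ± 0.37 (adjusted p = 0.649). That fit does not use the pairing of arrays by animal, so the spread between animals enters its error. Over the 25 alternatives, a block for the animal among them, SMPD1 did not pass (lowest adjusted p 0.0765). PPT1, a thioesterase that removes palmitate from proteins, differed by 0.04 ± 0.19.

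Lipid breakdown also needs small carrier proteins, of which PSAP and NPC2 were measured. PSAP, the precursor of the saposins that present sphingolipids to hydrolases, had 12.04, 12.10, 11.82, 11.81 and 11.90 in non-adherent cells, against 12.41, 12.68, 12.42, 12.41 and 12.44 in adherent cells. The groups did not overlap, and PSAP fell by 0.54 ± 0.09 (adjusted p = 0.00286). NPC2, which hands free cholesterol to NPC1 in the lumen, had 11.16, 11.12, 11.16, 11.26 and 11.15 in non-adherent cells, against 11.01, 11.86, 11.66, 11.51 and 11.46 in adherent cells. The adherent array of animal 1 was the lowest of all, and NPC2 did not pass (-0.33 ± 0.14, adjusted p = 0.127), though without that array it differed by -0.45 ± 0.10 (adjusted p = 0.00698). The lysosomal acid phosphatase ACP2 had 9.55, 9.66, 9.51, 9.32 and 9.42 in non-adherent cells, against 10.23, 10.09, 10.14, 10.19 and 10.15 in adherent cells. ACP2 fell by 0.67 ± 0.08 (adjusted p = 0.000522), and its adherent arrays lay within an SD of 0.05.

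The membrane proteins split, with NPC1, CLN3 and LAMP1 lower (42.9%) and the other 4 not passing. The share that fell was 13.3% for genes above the median level of all probe sets. NPC1, the exporter of lysosomal cholesterol, had 10.97, 10.92, 10.87, 10.90 and 11.02 in non-adherent cells, against 11.44, 11.65, 11.70, 11.62 and 11.72 in adherent cells. CLN3, the protein mutated in juvenile neuronal ceroid lipofuscinosis, had 7.97, 7.67, 7.68, 7.99 and 8.03 in non-adherent cells, against 8.41, 8.34, 8.49, 9.14 and 8.66 in adherent cells. All non-adherent arrays lay below all adherent ones for both genes, and NPC1 fell by 0.69 ± 0.08 (adjusted p = 0.000313) and CLN3 by 0.74 ± 0.15 (adjusted p = 0.00807).

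LAMP1, a structural glycoprotein of the lysosomal membrane, had 9.25, 9.38, 9.40, 9.40 and 9.35 in non-adherent cells, against 10.30, 10.03, 9.67, 9.77 and 9.55 in adherent cells. Its non-adherent arrays were tight and the adherent ones spread upwards, with animal 1 highest. LAMP1 fell by 0.51 ± 0.13 (adjusted p = 0.0245), a call lost without adherent animal 2 (adjusted p = 0.0524) or non-adherent animal 1 (adjusted p = 0.0587), and without both arrays of animal 2, 3 or 4 (highest adjusted p 0.0874). LAMP2, its paralogue and a receptor in chaperone-mediated autophagy, had 12.52, 12.58, 12.46, 12.44 and 12.44 in non-adherent cells, against 12.51, 12.44, 12.18, 12.30 and 12.32 in adherent cells. LAMP2 was higher in 5 of 5 animals by small amounts and did not pass (0.14 ± 0.08, adjusted p = 0.284). Whether LAMP1 and LAMP2 differed from each other in their change was not tested.

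LAPTM4A, a small protein of the lysosomal membrane, had 11.78 to 11.94 in non-adherent cells and 11.40 to 11.77 in adherent cells, with no overlap. It nonetheless did not pass (0.19 ± 0.09, adjusted p = 0.174). LAPTM5, a related protein of blood cells that directs immune receptors to lysosomes, differed by 0.44 ± 0.18 (adjusted p = 0.126), and by 0.59 ± 0.14 without adherent animal 1 (adjusted p = 0.0119). SCARB2, the receptor that carries glucocerebrosidase to lysosomes, differed by 0.28 ± 0.33, and by -0.10 ± 0.10 without that array.

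Of the 6 proton pump genes, ATP6AP1 fell and the other 5 did not pass. That share (16.7%) was near the 13.3% that fell among genes above the median level of all probe sets. ATP6AP1, an accessory protein in pump assembly, had 9.99, 9.51, 10.15, 9.85 and 9.87 in non-adherent cells, against 10.93, 10.81, 10.98, 11.15 and 11.02 in adherent cells. The closest arrays of the 2 groups were 0.66 apart, and ATP6AP1 fell by 1.11 ± 0.12 (2.15-fold, adjusted p = 0.000216). ATP6V1H, a regulatory subunit of V1, had 9.74, 9.25, 9.73, 9.73 and 9.56 in non-adherent cells, against 9.36, 10.55, 10.62, 10.43 and 10.81 in adherent cells. Apart from animal 1, every adherent array of ATP6V1H was above every non-adherent array. It did not pass (-0.75 ± 0.24, adjusted p = 0.0546), and it passed without adherent animal 1 (adjusted p = 0.000305).

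ATP6V0D2, a V0 subunit known from osteoclasts and macrophages, had 3.90, 3.67, 3.88, 3.68 and 3.66 in non-adherent cells, against 3.74, 4.89, 4.46, 4.06 and 4.58 in adherent cells. It was the one member with a mean below the median level of all probe sets, and it did not pass (-0.59 ± 0.19, adjusted p = 0.0545, and 0.0049 without adherent animal 1). Its widely expressed counterpart ATP6V0D1 differed by -0.23 ± 0.13 (adjusted p = 0.26, and 0.0418 without adherent animal 1). The catalytic V1 subunit ATP6V1A and its partner ATP6V1B2 differed by 0.22 ± 0.26 and 0.13 ± 0.25, and by -0.07 ± 0.08 and -0.14 ± 0.10 without adherent animal 1.

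The adherent array of animal 1 stood apart for several of these members. Among the 5 adherent arrays it was the lowest for 15 members (35.7%, against 29.6% of all genes) and the highest for 17 (40.5%, against 28.7%). For genes above the median level of all probe sets these shares were 34.0% and 29.7%. The members' share of lowest values was thus near that background. SCARB2 had 9.71, 11.71, 11.52, 11.72 and 11.41 in adherent cells of animals 1 to 5, and ATP6V1A had 10.23, 11.76, 11.63, 11.63 and 11.64. In both genes animal 1 lay more than 1 log2 unit under the other 4 animals, which differed among themselves by 0.32 at most. CTSD went the opposite way, with 12.71 in that array and at most 11.72 in the others. Without it, 19 members fell and 2 rose, where 13.0% of all genes fell and 9.34% rose. Those gained were CTSB, CTSK, NPC2, ATP6V0D1, ATP6V0D2, ATP6V1H and, as the second riser, LAPTM5, while HEXA was lost (adjusted p = 0.0549). In each gained gene that array lay outside the range of the other adherent arrays, and removing such a value narrows the error by construction. The adjusted p-values given without it depend on that removal. The median within-group SD of the members was 0.13 in non-adherent cells, against 0.33 in adherent cells and 0.20 in adherent cells without animal 1. Over all genes these medians were 0.17, 0.20 and 0.16, and for genes above the median level of all probe sets 0.17, 0.23 and 0.17. The adherent SD was the larger for 37 of 42 members (88.1%), 60.2% of all genes and 67.7% of genes above that level.

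**Figure D3:**
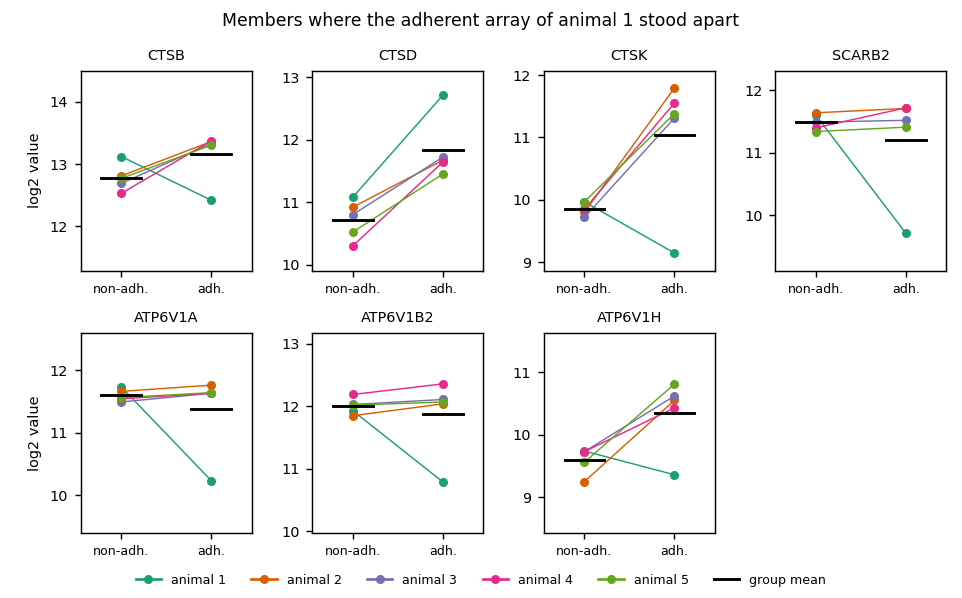
Log2 value (y axis) of the 7 members for which the adherent array of animal 1 (green) stood apart from the other 4 adherent arrays, with non-adherent cells on the left of each panel. The green line falls to the adherent side in 6 panels and rises to 12.71 in that of CTSD. Black bars are group means (n = 5 each).

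Of the 42 members, 16 had more than 1 probe set, 56 in all. In a fit over all 47845 probe sets, 15 of the 56 were lower and 2 higher, where 6.04% and 4.73% of all probe sets were. Every probe set of GLB1 (3 of 3), CLN3 (2 of 2) and PSAP (2 of 2) fell, as did 3 of 4 for ACP2, 2 of 3 for SGSH and 1 of 2 for GALNS. The second probe set of GALNS had a mean of 3.91, and the mean of both gave -0.53 (adjusted p = 0.00249) in place of -0.91. TPP1 had a second probe set that fell by 1.31 ± 0.11, and the mean of both gave -0.93 (adjusted p = 0.00123). The 2 probe sets of CTSK ran in opposite directions, at -1.17 ± 0.42 and 0.59 ± 0.20, and neither passed. Of 4 probe sets for CTSH, 1 fell, by 0.63 ± 0.13. The 8 probe sets of LAMP2 differed by -0.34 to 0.55 and 1 rose, by 0.45 ± 0.11, whereas the 7 of MITF differed by -0.38 to 0.49 and did not pass. No member had probe sets that passed in both directions.

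**Figure D4:**
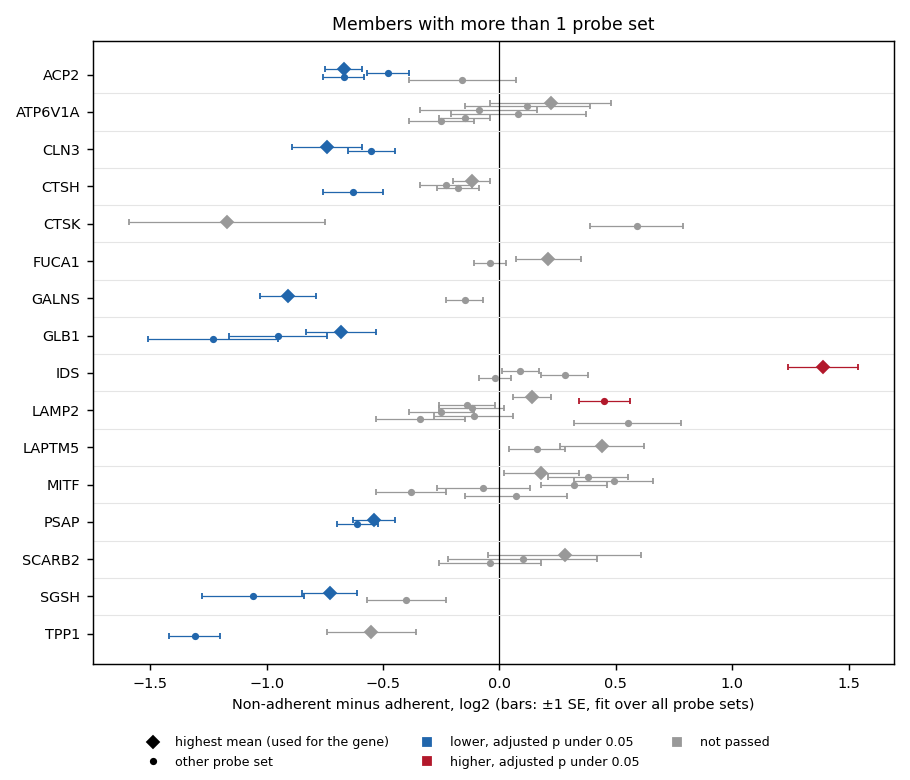
Log2 differences (non-adherent minus adherent, x axis, bars of 1 SE) of every probe set of the 16 members with more than 1. Diamonds mark the probe set that represented the gene. The probe sets of GLB1, CLN3 and PSAP all lie left of 0, those of CTSK on both sides, and 1 of the 4 for IDS lies far right of the rest.

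Other lysosomal genes were read from 5 further lists with 86 measured genes of 113 listed. Of these, 22 fell (25.6%) and 7 rose (8.14%), beside the 9.78% and 6.72% of all genes, and their median difference was -0.26. Over genes above the median level of all probe sets, where 82 of the 86 lay, 13.3% fell and 7.79% rose, so the share that rose was near this background. The same background applies to each of the 5 lists, most of whose genes lay above that level. Among 18 further hydrolases, 3 fell (16.7%) and 1 rose (5.56%), both near this background. DPP7, a dipeptidyl peptidase, fell by 1.32 ± 0.13, NEU1, the lysosomal sialidase, by 1.14 ± 0.19 and SCPEP1, a serine carboxypeptidase, by 1.25 ± 0.25. HPSE, the heparanase, had 9.66, 9.88, 9.30, 9.50 and 9.12 in non-adherent cells, against 6.78, 7.47, 6.69, 7.65 and 6.60 in adherent cells, and rose by 2.45 ± 0.23 (1.18 on averaging its probe sets).

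Among 26 further membrane proteins, 6 fell (23.1%) and 3 rose (11.5%), where 9.78% of all genes fell and 6.72% rose. CLCN7, the chloride-proton exchanger of lysosomes, had 7.68, 7.56, 7.72, 7.55 and 7.37 in non-adherent cells, against 8.83, 8.83, 8.98, 9.11 and 8.87 in adherent cells. The groups were more than 1 log2 unit apart at their closest, and CLCN7 fell by 1.35 ± 0.09 (adjusted p = 2.25e-05). CLN8, a transport receptor for newly made hydrolases, fell by 0.65 ± 0.15 (adjusted p 0.063 without animal 2). The tetraspanin CD63 fell by 0.33 ± 0.08, a call lost under a block for the animal (adjusted p = 0.0538), without adherent animal 3 (0.0504) and without both arrays of animal 3 or 5 (highest 0.103). LAMP3, the LAMP protein of mature dendritic cells, rose by 3.33 ± 0.42, with 8.32 ± 1.08 in non-adherent cells and 4.99 ± 0.23 in adherent cells (SD, n = 5 each). The peptide transporter ABCB9 differed by 0.76 ± 0.16 (adjusted p = 0.00941), but by -0.02 on averaging its probe sets (adjusted p = 0.931) and with an adjusted p of 0.0643 without animal 3. SLC38A9, the arginine sensor of mTORC1, rose by 0.54 ± 0.16, a narrow call. Removing any of 7 single arrays ended it (adjusted p up to 0.0792), as did removing any animal but animal 2 (up to 0.129) or averaging its probe sets (0.295).

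The further pump genes went both ways, with 3 of 11 lower (27.3%) and 2 higher (18.2%), where 9.78% of all genes fell and 6.72% rose. The V0 subunits ATP6V0B and ATP6V0C fell by 0.73 ± 0.09 and 0.43 ± 0.08, with no overlap between groups. ATP6V1G1 fell by 0.48 ± 0.13, while its brain-type paralogue ATP6V1G2 rose by 0.55 ± 0.15 and the accessory subunit ATP6AP2 by 0.36 ± 0.10. Each of these 3 calls ended on removing any of 7 single arrays, with adjusted p-values of up to 0.069, 0.072 and 0.0833. Leaving out both arrays of animal 2, 3 or 5 also ended the calls of ATP6V1G1 and ATP6V1G2 (highest adjusted p 0.138 and 0.121), and leaving out any animal ended that of ATP6AP2 (highest 0.15). The mean of probe sets gave -0.17 for ATP6V1G1 (adjusted p = 0.216) and 0.36 for ATP6V1G2 (0.0608). Centring the arrays and quantile normalization each ended the call of ATP6V1G1 as well.

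Among 21 genes of hydrolase delivery and modification, 7 fell (33.3%) and 1 rose (4.76%), where 9.78% of all genes fell and 6.72% rose. GGA1, an adaptor that sorts mannose 6-phosphate receptors at the Golgi, fell by 1.04 ± 0.13. VPS18 and VPS16, core subunits of the complexes that tether endosomes to lysosomes, fell by 0.98 ± 0.13 and 0.71 ± 0.11. AP3M1, a subunit of the AP-3 adaptor for lysosomal membrane proteins, rose by 0.58 ± 0.12, a call lost without both arrays of animal 3 (adjusted p = 0.0615). Among 10 genes of nutrient sensing at the lysosome, 3 fell (30.0%), beside the same 9.78% of all genes. FNIP2, a partner of folliculin, had 7.96, 7.74, 7.60, 7.41 and 7.68 in non-adherent cells, against 8.61, 8.84, 8.68, 8.56 and 8.99 in adherent cells. RRAGC, a GTPase that recruits mTORC1 and TFEB to the lysosome, had 9.54, 9.43, 9.34, 9.46 and 9.48 in non-adherent cells, against 9.96, 10.33, 10.30, 10.52 and 10.32 in adherent cells. Groups did not overlap for either gene, which fell by 1.06 ± 0.12 (FNIP2, adjusted p = 0.000295) and 0.83 ± 0.10 (RRAGC, adjusted p = 0.000547). RPTOR, the scaffold of mTORC1, fell by 0.71 ± 0.18, a call that ended on removing adherent animal 5 or non-adherent animal 3 (highest adjusted p 0.0539) and without both arrays of animal 2, 3, 4 or 5 (highest 0.107). Without adherent animal 1, 32 of the 86 genes fell and 12 rose, where 13.0% of all genes fell and 9.34% rose.

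**Figure D5:**
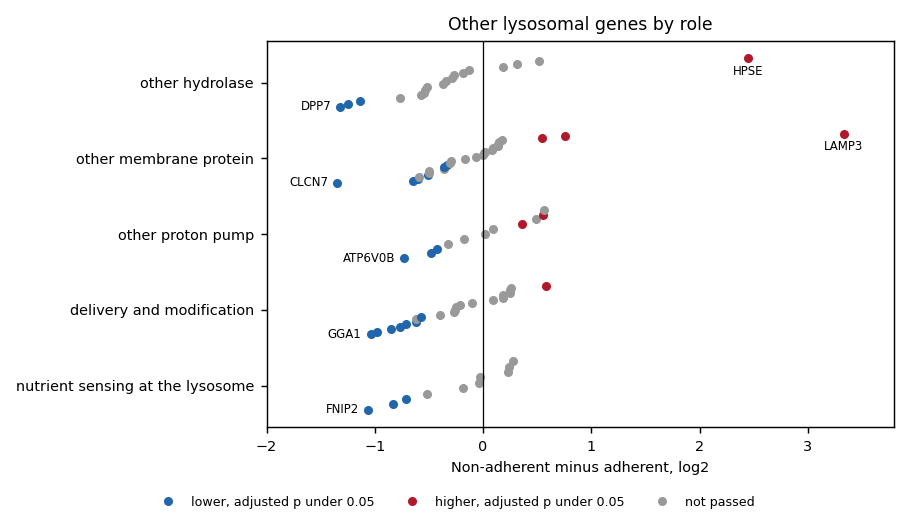
Log2 differences (non-adherent minus adherent, x axis) of the 86 other lysosomal genes in 5 lists (y axis), 1 point per gene, spread vertically within a list for legibility. Blue points passed an adjusted p of 0.05 and were lower (22), red points were higher (7) and grey points did not pass. LAMP3 and HPSE lie farthest right and CLCN7 farthest left.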

How the data were processed

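Alveolar macrophage RNA of 5 pigs was measured on 10 arrays, 5 of non-adherent and 5 of adherent cells. The authors deposited log2 expression values of 47845 probe sets, and RMA and Partek are named per the submitters' processing notes. Genome build, and whether all 10 arrays were normalized together, are not given in the sources used here. Symbols came from the platform's annotation (26426 probe sets with 1 symbol, 0 with several), and the probe set with the highest mean over the arrays was kept for each of 13755 genes, with no filter. Groups were compared with limma 3.58.1 in R 4.3.3 (lmFit, eBayes, 2-sided, Benjamini-Hochberg). Each array is 1 animal's cells, so n is 5 animals a group, and that number limits the precision.

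The members and lists were chosen with earlier results of these data known, so their counts are descriptions. All measured members were named. Per-array values were given for those past the threshold and for the MiT, LAMP, cathepsin and NPC genes, and for others where the text turns on them. From the other lists, up to 3 genes with the lowest p per direction and list were named.

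Both groups came from the same animals, and same-animal residuals correlated at 0.116, 0.220, 0.398, 0.364 and 0.394 (animals 1 to 5). For animal 1 this was lower than for its non-adherent array with adherent animal 2 (0.203) and its adherent array with non-adherent animal 2 (0.212). These values therefore do not single out the pair of animal 1. A block for the animal was tried as an alternative. The others left out each array or animal, or changed array scaling, variance model, array weights, low-value filter, probe set choice or the number of probe sets adjusted over. A GC-rich background covariate was added after seeing the data. On simulated data with 200 of 13755 genes changed in this comparison, 35.8% were recovered at a log2 change of 0.5, 85.1% at 1 and 100% at 2.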

Additional observations from a re-analysis of the deposited data

Results flagged for a closer look

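In groups of 5 arrays, a lowest or highest array was flagged when its gap to the next exceeded 0.71 of the group's range. Chance gives that in about 1 in 20 groups of normally distributed values. It held for 12 of 84 group values of the members and 1 of 44 of the other named genes. The adherent array of animal 1 was such an array for 7 of the 42 members. It was the lowest adherent array for CTSB (12.42), CTSK (9.15), SCARB2 (9.71), ATP6V1A (10.23), ATP6V1B2 (10.79) and ATP6V1H (9.36), and the highest for CTSD (12.71). Across all genes that array stood apart in the same way for 1095 genes (7.96%), against 0.611% to 1.79% for each of the other 9 arrays. The rate of 1 in 20 is for a whole group of 5 arrays, and in the adherent group this array alone exceeded it over all genes. It is therefore not the background for the members' count, nor for a single array. No share over all genes and both groups was computed, so the 12 of 84 are a count only. The remaining arrays were non-adherent animal 5 for CTSA (11.81, lowest) and GUSB (7.88, lowest), adherent animal 4 for TPP1 (10.42, highest), adherent animal 5 for MANBA (8.86, lowest), adherent animal 2 for PSAP (12.68, highest) and non-adherent animal 2 for VPS18 (6.65, lowest).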

How the results depend on the processing

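Of the 15 called members, 11 passed under every alternative but the GC-rich background covariate, and the exceptions were CTSZ, HEXA, GLB1 and LAMP1. With the animal as a block, the pairing of the arrays left 14 members lower and 1 higher, and over all genes 1426 lower and 1080 higher. It ended the calls of HEXA and CD63, added LIPA, and changed no other call of a named gene. Leaving out an array or an animal gave 10 to 19 members lower and 1 to 2 higher, 2 to 12 other lysosomal genes higher, and 1119 to 3067 genes in all, the lowest totals without animal 3 and the highest without adherent animal 1. The block without adherent animal 1 gave 3495 genes in all, 2 members higher, and 36 other lysosomal genes lower and 12 higher. Array weights gave 21 members lower and 2 higher, while over all genes they gave 1786 lower and 1365 higher. The added covariate left 2 genes in all and 0 in each of these lists. It changed the sign of CTSC (-0.90), CTSD (0.00), IDUA (1.19), FUCA1 (-0.20), GBA2 (0.26), SMPD1 (0.89), SCARB2 (-1.71), LAPTM4A (-0.17), ATP6V1A (-1.16), ATP6V1B2 (-1.18), SCPEP1 (0.12), SLC38A9 (-0.50), ATP6V1G1 (0.01) and AP3M1 (-0.12). Signs also changed for genes that did not pass. The block without adherent animal 1 gave CTSC -0.02, IDUA 0.21, SCARB2 -0.12, ATP6V1A -0.10 and ATP6V1B2 -0.12, and array weights gave -0.01, 0.10, -0.04, -0.02 and -0.04 in the same order. The mean of probe sets gave ATP6V1A -0.01 and the called ABCB9 -0.02, and centring and quantile normalization gave TFE3 0.03 and 0.01. Leaving out arrays or animals gave CTSC -0.06 to 0.15, IDUA -0.31 to 0.21, PPT1 -0.07 to 0.22, SCARB2 -0.12 to 0.43, ATP6V1A -0.10 to 0.31, ATP6V1B2 -0.14 to 0.25 and TFE3 -0.17 to 0.03. The causes were not tested. In the simulation most changes of 0.5 were missed, but it changed 200 genes and called 151, where 2270 genes passed in the data. The adjusted threshold was therefore stricter there. The simulation also drew independent normal noise with the same SD in both groups of a gene. In the data the members' median SD was 0.13 in non-adherent cells and 0.33 in adherent cells, and arrays of an animal were correlated. The simulation's recovered shares need not hold for these data. Differences of that size that did not pass may still have been missed with 5 arrays a group.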
